A study of Mus musculus with 4 samples.

Results

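The hepatocyte organic ion transporters described here are 9 genes whose proteins carry bile acids, bilirubin, hormones, drugs and lipids across the opposite faces of the liver cell. All probe sets with exactly 1 of these symbols in the platform annotation were taken, which gave 16 probe sets of the 45101 on the array, and 9 of 18193 named genes. The uptake carriers of the sinusoidal (blood-facing) membrane were Slc22a7, Slco1a1, Slco1a4, Slco1b2 and Slco2b1, and the efflux carriers were Abcc2, Abcc3, Abcb4 and Abcg2. The 2 groups were regenerating livers of mice given human bone marrow mesenchymal stem cells expressing OGFRL1 (n = 2 arrays) and of mice given such cells expressing EGFP, the fluorescent control protein (n = 2 arrays). All were BALB/c nu/nu mice, which lack a thymus. All had received carbon tetrachloride, a toxin that injures the pericentral hepatocytes, 23 times at 0.25 ml/kg, and 1000000 cells into the spleen. Part of the liver was resected on day 21, and the regenerating remnant was collected 8 days after surgery. The age and sex of the animals, and whether each array came from 1 mouse, are not given in the sources used here, so p-values measure only how far these arrays differ among themselves, which may be technical. The probe sets are those of a mouse array, so the human cells' own transcripts were not a planned target.

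Uptake from the portal blood runs through solute carriers. Organic anion transporting polypeptides (the Slco genes) take up bile acids, bilirubin, steroid conjugates and many drugs, and organic anion transporters (such as the Slc22a7 product OAT2) exchange small anions. Efflux runs through ATP-binding cassette pumps, either across the canalicular membrane into bile (Abcc2, Abcb4, Abcg2) or back to blood across the basolateral membrane (Abcc3). Loss of uptake carriers with upkeep or gain of basolateral efflux is a textbook response of the hepatocyte to cholestasis and injury.

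The stretches upstream of 4 carriers are shown because 3 Slco genes of chromosome 6 gave differences of opposite sign (Slco1b2, Slco1a4) or hardly any signal (Slco1a1), and Abcc2 gives an efflux carrier to set beside them. Neither the Slco1b2 nor the Slco1a4 difference passed over all genes (limma adjusted p = 0.114 and 0.495). The Slco1a4 groups overlapped, so an opposite change is not established. Each is the 250 bases before the annotated start, 5′ to 3′ on the gene's strand, from RefSeq (GRCm38.p6). In the RefSeq gene order Slco1b2, Slco1a4 and Slco1a1 lie within a single run of Slco and predicted genes. Capitals mark matches on either strand to TTCNNNGAA (known as a STAT site), TGACNNNGC (the core of the antioxidant response element), GTTAAT (part of the HNF1 site), TATAAA or CCAAT.
Slco1b2 (chr6:141629268-141629517, plus strand): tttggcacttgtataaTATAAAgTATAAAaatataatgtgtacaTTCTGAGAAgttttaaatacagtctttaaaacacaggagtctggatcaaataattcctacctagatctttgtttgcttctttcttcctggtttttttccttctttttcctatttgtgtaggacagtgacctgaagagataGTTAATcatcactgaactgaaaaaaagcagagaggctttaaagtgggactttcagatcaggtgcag
Slco1a4 (chr6:141856221-141856470, minus strand): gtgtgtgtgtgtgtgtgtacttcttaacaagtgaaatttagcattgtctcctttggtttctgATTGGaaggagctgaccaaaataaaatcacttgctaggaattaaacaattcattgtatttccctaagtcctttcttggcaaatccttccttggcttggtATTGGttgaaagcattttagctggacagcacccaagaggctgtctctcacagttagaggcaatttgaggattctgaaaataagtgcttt
Slco1a1 (chr6:141946963-141947212, minus strand): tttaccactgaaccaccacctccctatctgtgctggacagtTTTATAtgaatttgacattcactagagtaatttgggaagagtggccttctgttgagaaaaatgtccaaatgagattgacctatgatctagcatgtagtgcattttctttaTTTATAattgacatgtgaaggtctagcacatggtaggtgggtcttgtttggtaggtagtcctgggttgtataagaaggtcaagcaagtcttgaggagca
Abcc2 (chr19:43782058-43782307, plus strand): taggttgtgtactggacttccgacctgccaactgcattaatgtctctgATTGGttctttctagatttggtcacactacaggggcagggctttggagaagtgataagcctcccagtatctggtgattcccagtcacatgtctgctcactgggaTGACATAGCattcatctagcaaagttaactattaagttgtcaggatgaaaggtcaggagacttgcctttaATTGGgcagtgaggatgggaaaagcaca

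Windows were found for 7 of the 9 genes, 11 windows in all because Slco2b1 and Abcg2 have 3 annotated starts each. Slc22a7 and Abcc3 are named only. TTCNNNGAA was in 2 of the 11 windows (Slco1b2 and 1 start of Slco2b1), against 7.02% of 32851 RefSeq windows of the same length. TGACNNNGC was in 1 window (Abcc2), against 10.2%. GTTAAT was in 1 window (Slco1b2), against 6.43%. TATAAA was in 2 windows (Slco1a1 and Slco1b2), against 12.4%, and CCAAT was in 4 windows, 1 each of Slco1a4, Slco2b1, Abcc2 and Abcb4, against 33.8%. None of these matches overlapped another. A match is a run of letters, not a shown binding site.

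Of the 9 carriers, 8 reached a mean signal of 11.6, the median of the probe set means, and entered the test. Slco1a1 did not. Of these 8, Slc22a7 alone passed an adjusted p of 0.05 (limma, Benjamini-Hochberg over all 11942 genes tested), where 61 genes or 0.511% passed in all. When every probe set was fitted on its own, the Slc22a7 probe set was again the only one of the members to pass, where 68 of 20238 probe sets or 0.336% did. Of the uptake carriers tested, 3 of 4 were lower in OGFRL1 livers with no overlap between the groups of arrays, and of the efflux carriers 2 of 4 were. Over all genes tested 20.5% were lower without overlap.

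**Figure D1:**
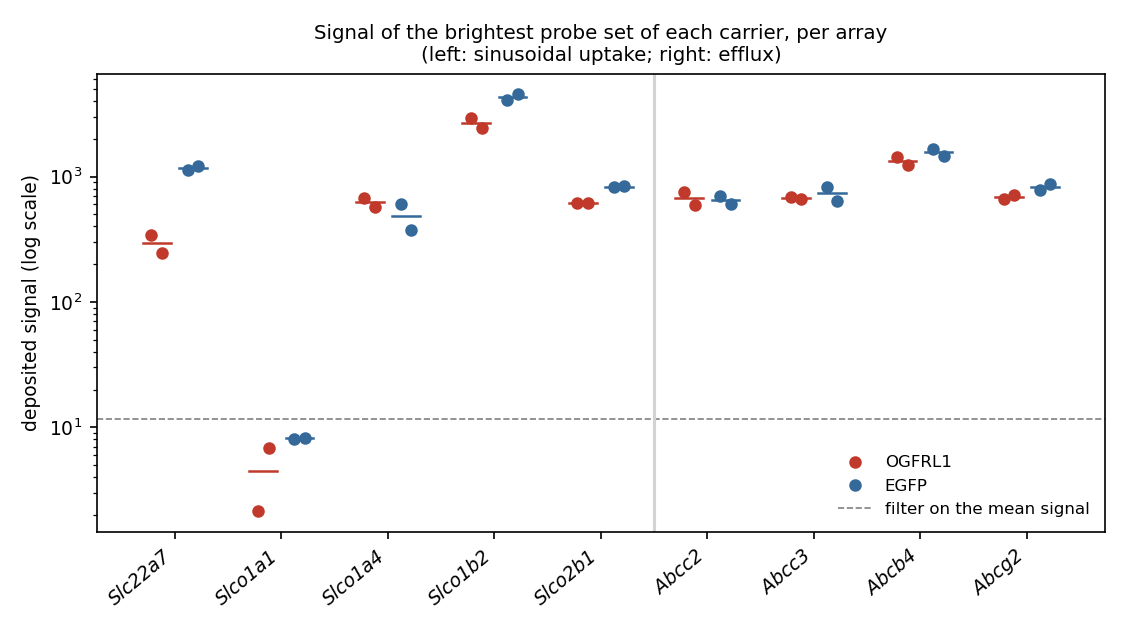
Deposited signal (log scale) of the brightest probe set of each carrier on every array, OGFRL1 in red and EGFP in blue, with group means as bars (n = 2 arrays each) and the filter on the mean signal, 11.6, as a dashed line. Slc22a7 is the carrier with the widest gap, at 341 and 247 in OGFRL1 livers against 1119.8 and 1204 in EGFP livers, and Slco1a1 lies below the filter on all arrays.

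Slc22a7, whose product OAT2 moves small organic anions at the sinusoidal membrane, fell in OGFRL1 livers. Its probe set 1451460_a_at read 341 and 247 on OGFRL1 arrays 1 and 2, against 1119.8 and 1204 on EGFP arrays 1 and 2. Both OGFRL1 arrays lay far below both EGFP arrays, and the gap was many times the spread within either group. The group means were 294 ± 66.7 in OGFRL1 livers and 1162 ± 59.3 in EGFP livers (SD, n = 2 each), a ratio of 0.253. On the log2(signal + 3.51) scale the difference was -1.99 ± 0.18 (SE), with a 95% interval from -2.43 to -1.55 and a limma adjusted p of 0.0364. By p-value it was gene 6 of the 11942, and by size of decrease gene 14.

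The size of the Slc22a7 change depended little on the processing, while its call did. It stayed between -2.22 and -1.76 in 15 alternative fits (other scalings, pseudocounts, filters and left-out arrays) and passed the threshold in 10. The call was lost after quantile normalization (adjusted p = 0.0524), with no filter on dim genes (0.0782), without the intensity trend (0.150), without OGFRL1 1 (0.139) and without OGFRL1 2 (0.178).

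The genes whose 4 values, centred on their own mean, came closest to those of Slc22a7 were Dct (an enzyme of melanin synthesis), Gm2788, Car1 (a carbonic anhydrase) and 1700071K01Rik. The root mean square distance was 0.12 log2 units for Dct and Gm2788, 0.16 for Car1 and 0.17 for 1700071K01Rik. Gm2788, Car1 and 1700071K01Rik averaged 11.3, 6.48 and 3.8 in OGFRL1 livers, below the filter of 11.6, and entered the fit only through their signal in EGFP livers (46.6, 36.5 and 19.9), so their likeness rests on values near the bottom of the range. Dct read 56.3 and 50.4 in OGFRL1 livers, against 227 and 232 in EGFP livers. Dct also passed the threshold (log2 change -2.04, limma adjusted p = 0.0345). Gm2788, Car1 and 1700071K01Rik did not, with limma adjusted p of 0.0682, 0.0544 and 0.133.

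Slco1b2 encodes Oatp1b2, the mouse counterpart of the human OATP1B carriers of bilirubin and bile acids. Its brightest probe set, 1449394_at, read 2929 and 2429 in OGFRL1 livers, against 4048 and 4527 in EGFP livers. The groups did not overlap, with means of 2679 ± 354 in OGFRL1 livers and 4288 ± 338 in EGFP livers (SD, n = 2 each). The log2 difference of -0.68 ± 0.15 (SE, 95% interval -1.05 to -0.31) did not pass over all genes (limma adjusted p = 0.114). It passed without EGFP 1 (-0.76, adjusted p = 0.0225) and without EGFP 2 (-0.60, adjusted p = 0.0448), fits in which 598 and 873 genes passed in all. It did not pass without OGFRL1 1 (-0.82, adjusted p = 0.492) or without OGFRL1 2 (-0.55, adjusted p = 0.848), where no gene passed and 922 and 732 genes had an unadjusted p under 0.05.

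Slco1b2 had 5 probe sets, and the 3 above the filter pointed the same way. Probe set 1452494_s_at read 1835 and 1548 in OGFRL1 livers, against 2795 and 3369 in EGFP livers, a log2 difference of -0.86 ± 0.16 (SE). Probe set 1427826_a_at read 173 and 117 in OGFRL1 livers, against 314 and 306 in EGFP livers, a difference of -1.11 ± 0.21. In the fit of single probe sets both had a limma adjusted p of 0.0866, against 0.129 for 1449394_at. The dimmer the probe set among these 3, the larger was the difference. The remaining 2, 1427825_at and 1452569_at, had mean signals of 5.26 and 4.26, below the filter, and their groups overlapped. The probe sets of a gene were measured on the same 4 RNA samples, so they are not replicates of the comparison. The ending _s_at, here and for Slco2b1 and Abcc2, marks a probe set that can match transcripts of more than 1 gene, so those values are uncertain to that extent.

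Slco2b1, whose product Oatp2b1 takes up steroid sulfates and is found in many tissues besides liver, was lower by a smaller amount. Its brightest probe set, 1433933_s_at, read 617 and 614 in OGFRL1 livers, against 820.04 and 834 in EGFP livers. Replicates lay close together, with means of 615 ± 1.97 in OGFRL1 livers and 827 ± 9.93 in EGFP livers (SD, n = 2 each). The log2 difference was -0.42 ± 0.13 (SE, 95% interval -0.73 to -0.12), with a limma adjusted p of 0.193. A second probe set, 1454777_at, read 214 and 226 in OGFRL1 livers, against 342 and 284 in EGFP livers. Its difference was -0.50 ± 0.16 (limma adjusted p = 0.243 over single probe sets). The third, 1458171_at, had a mean signal of 3.34, below the filter, and pointed the other way. The mean over all 3 probe sets brought the gene's difference to -0.10.

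Slco1a4 encodes Oatp1a4, a carrier of bile acids and cardiac glycosides that is known to be induced through the xenobiotic receptors. Its only probe set, 1420405_at, read 677 and 573 in OGFRL1 livers, against 599.6 and 377 in EGFP livers. The groups overlapped, with EGFP 2 as the low array. Means were 625 ± 73.4 in OGFRL1 livers and 489 ± 157 in EGFP livers (SD, n = 2 each), a log2 difference of 0.39 ± 0.23 (SE, 95% interval -0.17 to 0.95, limma adjusted p = 0.495). The value turned on which EGFP array was kept, at 0.72 without EGFP 1 (adjusted p = 0.0400) and 0.06 without EGFP 2 (adjusted p = 0.870).

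Slco1a1 encodes Oatp1a1, a carrier known as abundant in male mouse liver and scarce in female liver. Both of its probe sets were near the bottom of the array's range in both groups. Probe set 1449844_at read 2.14 and 6.81 in OGFRL1 livers, against 8.09 and 8.25 in EGFP livers. Probe set 1420379_at read 1.17 and 6.39 in OGFRL1 livers, against 0.884 and 11.5 in EGFP livers. Without a filter the brighter of them had a log2 difference of -0.61 ± 0.42 (SE, limma adjusted p = 0.630). Detection calls were not used here, so the probe sets' own sensitivity was not checked and no statement on presence or absence follows.

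**Figure D2:**
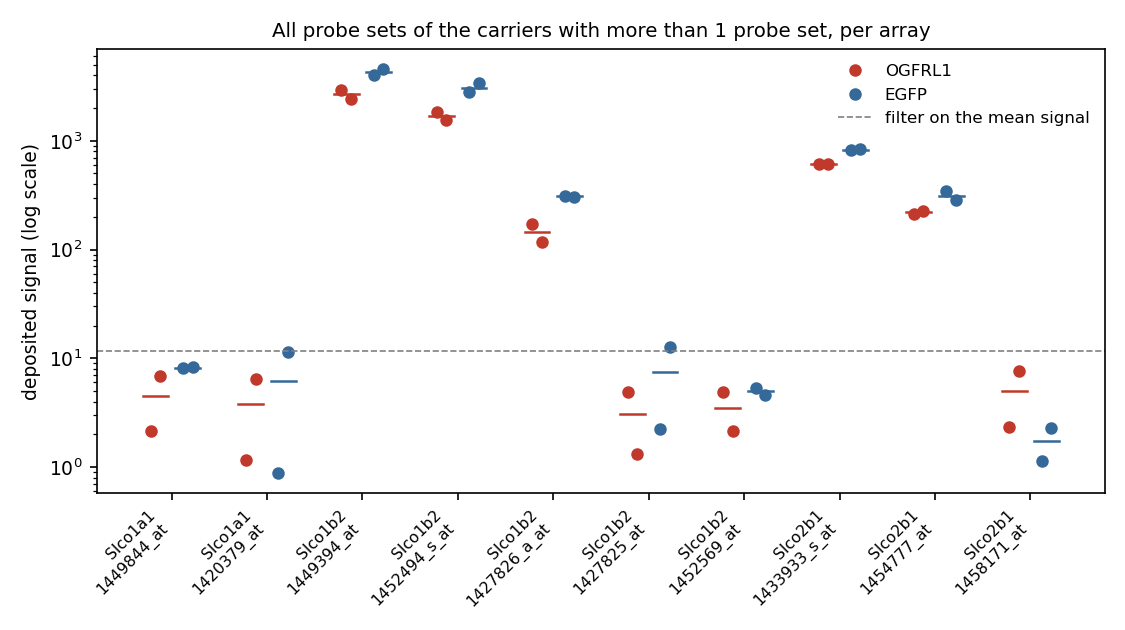
Deposited signal (log scale) of all 10 probe sets of Slco1a1, Slco1b2 and Slco2b1 on every array, OGFRL1 in red and EGFP in blue, with group means as bars and the filter on the mean signal, 11.6, as a dashed line. The 3 brighter probe sets of Slco1b2 and the 2 brighter ones of Slco2b1 are lower on both OGFRL1 arrays, and the other 5 have mean signals below the filter.

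None of the 4 efflux carriers passed the threshold over all genes (limma), where 0.511% of all genes tested did. None had an unadjusted p under 0.05, where 15.3% of all genes tested did. Of the 4 tested uptake carriers 3 did, all lower. Abcc2 encodes MRP2, the canalicular pump for bilirubin glucuronides and glutathione conjugates. Its probe set 1450109_s_at read 746 and 595 in OGFRL1 livers, against 704 and 599 in EGFP livers. The groups overlapped fully, with means of 671 ± 107 in OGFRL1 livers and 652 ± 74.5 in EGFP livers (SD, n = 2 each). The log2 difference was 0.04 ± 0.17 (SE), with a 95% interval from -0.37 to 0.44. It was -0.08 without EGFP 2 and -0.13 without OGFRL1 1, so it has no settled sign.

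Abcc3 encodes MRP3, which moves conjugates from hepatocyte or cholangiocyte back to blood. Its probe set 1428988_at read 681 and 661 in OGFRL1 livers, against 831 and 641 in EGFP livers. The groups overlapped, EGFP 1 being the high array. The log2 difference was -0.12 ± 0.16 (SE, 95% interval -0.51 to 0.27), and it was 0.07 without EGFP 1.

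Abcb4 encodes the canalicular floppase that delivers phosphatidylcholine to bile. Its probe set 1449818_at read 1436 and 1229 in OGFRL1 livers, against 1669 and 1471 in EGFP livers. The groups were separated by a gap smaller than the spread within each of them. The log2 difference was -0.24 ± 0.15 (SE, 95% interval -0.59 to 0.12, limma adjusted p = 0.509).

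Abcg2 encodes BCRP, a canalicular pump for sulfate conjugates and urate that is also found in endothelium and progenitor cells. Its probe set 1422906_at read 661 and 719 in OGFRL1 livers, against 776 and 871 in EGFP livers. Again the groups did not overlap, but the gap was no larger than the spread within either group. The log2 difference was -0.25 ± 0.14 (SE, 95% interval -0.58 to 0.08, limma adjusted p = 0.449). Each of these 4 intervals leaves out a fall of the size of Slc22a7, while those of Abcc3, Abcb4 and Abcg2 take in the difference seen for Slco2b1.

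**Figure D3:**
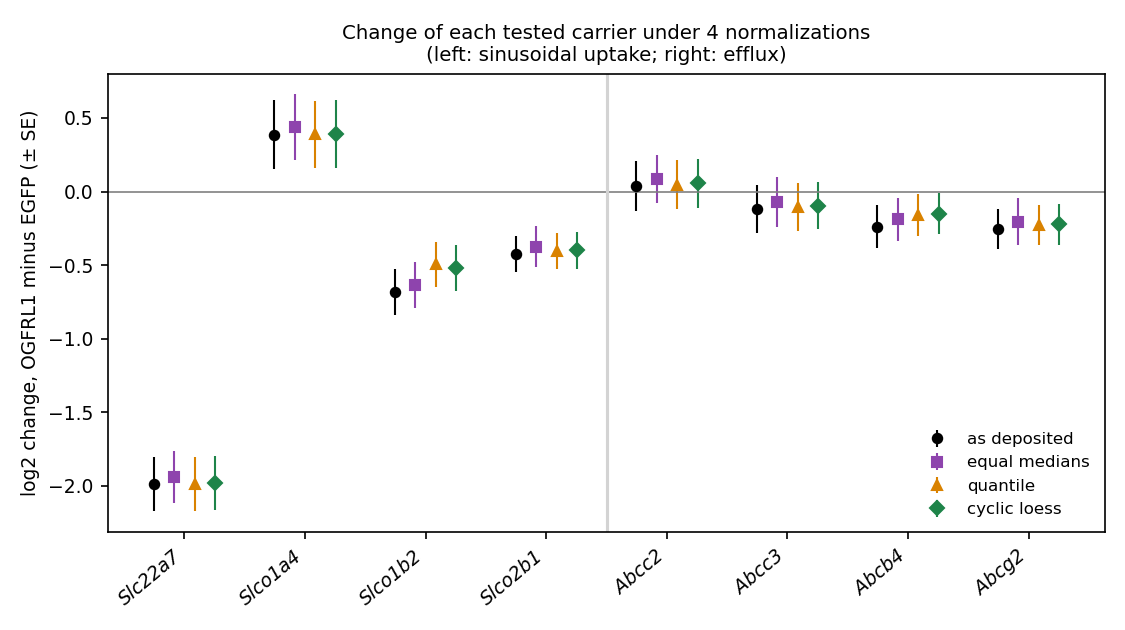
Log2 difference, OGFRL1 minus EGFP, with its SE for the 8 tested carriers, from the deposited signals and after 3 further normalizations (equal medians, quantile, cyclic loess). Slc22a7 stays between -1.99 and -1.94 under all 4, Slco1b2 moves from -0.68 to -0.49 with quantile normalization, and the efflux carriers stay between -0.25 and 0.09.

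As a class, the 4 tested uptake carriers had a median log2 difference of -0.55, and the 4 efflux carriers one of -0.18. The median over all genes tested was 0.04. The uptake median minus the efflux median was -0.37. After cyclic loess, which removes shifts that go with brightness, the medians were -0.46 for uptake and -0.12 for efflux. The efflux median was -0.040 without EGFP 1, -0.24 without EGFP 2, -0.17 without OGFRL1 1 and -0.11 without OGFRL1 2. In the same order, the uptake median was -0.60, -0.51, -0.62 and -0.48. Averaging each gene over its probe sets gave an uptake minus efflux median of -0.22. No test was made on these classes, as the carriers were picked with earlier results known.

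Within each array, the mean centred log2 signal of the uptake carriers minus that of the efflux carriers does not depend on how the array as a whole was scaled. It was -0.20 and -0.33 on OGFRL1 arrays 1 and 2, against 0.24 and 0.30 on EGFP arrays 1 and 2. Both OGFRL1 arrays thus lay below both EGFP arrays. Most of that difference came from Slc22a7. Without Slc22a7 the values were -0.02 and -0.07 in OGFRL1 livers, against 0.05 and 0.05 in EGFP livers. The group difference then shrank to -0.10, where it was -0.53 with Slc22a7. OGFRL1 minus EGFP was -0.24 for the uptake carriers without Slc22a7 and -0.14 for the efflux carriers. Of the 3 uptake carriers left, Slco1a4 pointed opposite to Slco1b2 and Slco2b1, with overlapping groups.

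**Figure D4:**
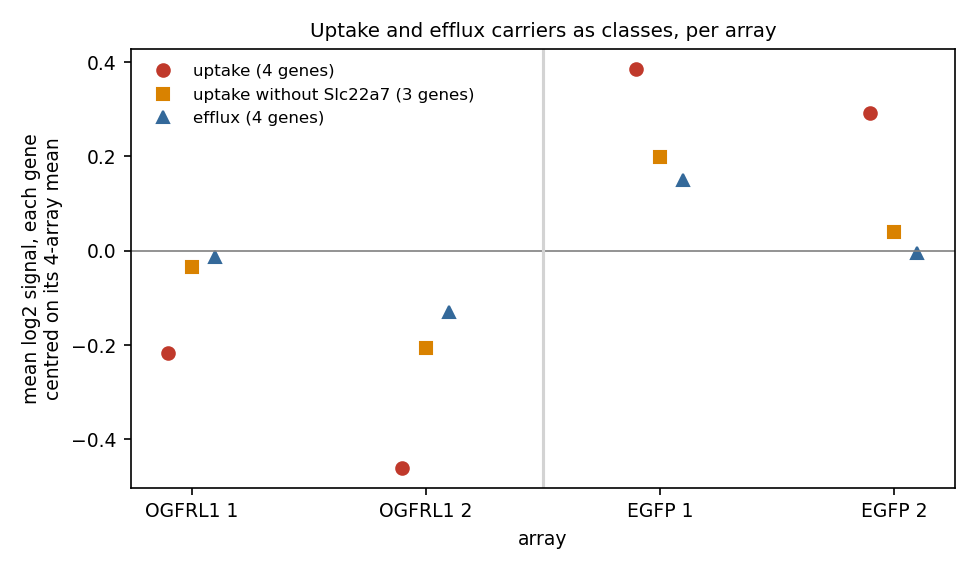
Mean log2 signal of each carrier class on each array, every gene centred on its mean over the 4 arrays; red circles are the 4 uptake carriers, orange squares the same without Slc22a7, blue triangles the 4 efflux carriers. The red circles sit at -0.22 and -0.46 on the OGFRL1 arrays and at 0.39 and 0.29 on the EGFP arrays, while the efflux carriers stay between -0.13 and 0.15.

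Other carriers of hepatocytes were read from the same fit. Of 17 further uptake carriers listed, 13 were measured and tested, 10 of them lower, with a median log2 difference of -0.41. Over all genes tested 44.4% were lower. Bright genes leaned lower: 289 of 382 at 2000 to 5000, the range of Slc27a5 and Slc10a1, and 128 of 134 at 5000 or more, that of Slc27a2. None passed over all genes (limma), 6 lower and 1 higher had an unadjusted p under 0.05, and 10 were lower without overlap. Over all genes tested, 6.28% were lower and 9.01% higher at that unadjusted p, and 20.5% were lower without overlap. The bile acid CoA ligase and fatty acid carrier Slc27a5 read 2281 and 2417 in OGFRL1 livers, against 4225 and 4412 in EGFP livers (log2 difference -0.88 ± 0.13 SE, limma adjusted p = 0.0539). Slc22a30, a relative of Slc22a7 in the same family, read 389 and 339 in OGFRL1 livers, against 617 and 706 in EGFP livers (-0.86 ± 0.15, limma adjusted p = 0.0684). The differences were -0.85 ± 0.17 for the aromatic amino acid carrier Slc16a10 and -0.49 ± 0.13 for the fatty acid carrier Slc27a2. The lactate carrier Slc16a1 pointed the other way, at 0.53 ± 0.15. The sodium-dependent bile acid carrier Slc10a1, the main uptake route for conjugated bile acids and chosen after its values were seen, had a difference of -0.36 ± 0.15 (limma adjusted p = 0.340).

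Of 15 further efflux carriers all were tested, 6 lower and 9 higher, with a median of 0.08, where 44.4% of all genes tested were lower. None passed over all genes (limma). At an unadjusted p under 0.05, 4 were lower and 2 higher, where 6.28% and 9.01% of all genes tested were. Without overlap, 4 were lower and 5 higher, where 20.5% of all genes tested were lower and 27% higher. Abcc6, a hepatocyte pump known from pseudoxanthoma elasticum, had -0.65 ± 0.15 (SE), Abcc5 -0.69 ± 0.19 and the organic cation extruder Slc47a1 -0.53 ± 0.14. Abcg5, a subunit of the canalicular sterol pump, had 0.54 ± 0.13, and the basolateral pump Abcc4 had 0.68 ± 0.21, with signals of 113 and 123 in OGFRL1 livers, against 85.8 and 61.5 in EGFP livers. The bile salt export pump Abcb11, chosen after its values were seen, had -0.52 ± 0.19. Among 9 other Slco genes only Slco2a1 and Slco3a1 passed the filter, with differences of 0.03 ± 0.16 and -0.14 ± 0.34.

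**Figure D5:**
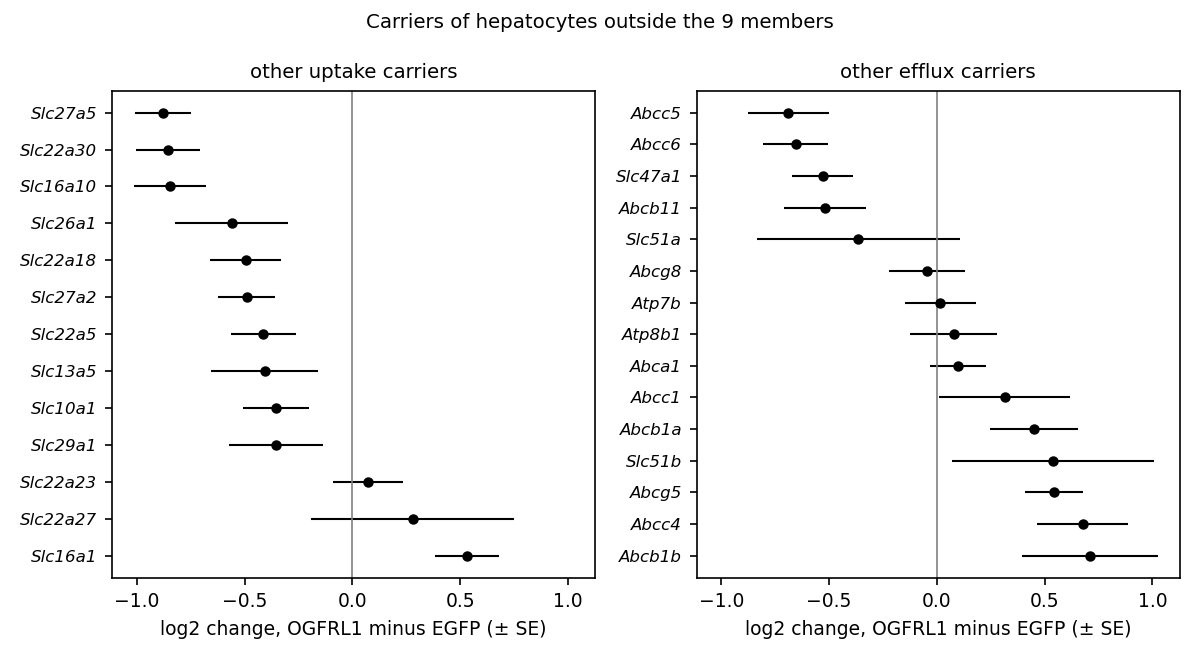
Log2 difference, OGFRL1 minus EGFP, with its SE for 13 other uptake carriers (left) and 15 other efflux carriers (right), in order of the difference. Of the uptake carriers 10 lie below 0, and of the efflux carriers 6 do, where 44.4% of all genes tested do.

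Receptors and factors known to set carrier expression were read next. Of 17 tested, 10 were lower, where 44.4% of all genes tested were, and the median difference was -0.12. None passed over all genes (limma). At an unadjusted p under 0.05, 2 were lower and 0 higher, where 6.28% and 9.01% of all genes tested were. Hnf4a, a master factor of hepatocyte genes, had -0.55 ± 0.15 (SE) and Cebpa -0.70 ± 0.22. Ahr had 0.35 ± 0.17, the bile acid receptor Nr1h4 -0.36 ± 0.20 and Cux2, a repressor known from female liver, -0.49 ± 0.27. Of 8 tested targets of NRF2, the factor of the antioxidant response known to drive Abcc2, Abcc3 and Abcc4, 5 were lower and 3 higher with a median of -0.20. None of these targets passed over all genes (limma). With an unadjusted p under 0.05, 2 were lower and 2 higher, where 6.28% of all genes tested were lower and 9.01% higher. Abcc4 (above) and the sulfiredoxin Srxn1 (0.54 ± 0.19) pointed up, and the glutathione synthesis genes Gclc (-0.57 ± 0.22) and Gclm (-0.36 ± 0.15) and the transferase Gstm1 (-0.36 ± 0.19) pointed down.

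Several series-wide shifts ran alongside. Of 8 hepatocyte markers, 7 were bright on all arrays and lower in OGFRL1 livers, and Ass1, read by a dim probe set (mean signal 37.7), was higher. The list had summed signals of 45980 to 50495 in OGFRL1 livers and 58467 to 82133 in EGFP livers and a median log2 difference of -0.47. Stellate cell and myofibroblast markers were higher in 7 of 8 cases (summed signals 3269 to 4763 in OGFRL1 livers, 2177 to 2238 in EGFP livers), and cell cycle genes in 9 of 9 (5296 to 6452, against 1953 to 2624). Cholangiocyte markers summed to 129 in both OGFRL1 livers and to 121 to 128 in EGFP livers over the 5 of 6 that passed the filter, Cftr not. Macrophage markers ranged from 4575 to 7656 in OGFRL1 livers and from 4010.4 to 8723 in EGFP livers, and the endothelial list from 2118 to 2372 and from 2391 to 2395. Genes with a mean signal of 5000 or more, the range of Alb, Ttr, Apoa1, Cps1, Fgb and Slc27a2, had a median difference of -0.43. In that class 128 of 134 genes were lower. Genes of 2000 to 5000, the range of Slco1b2, Hnf4a and Tat, had a median of -0.22, with 289 of 382 lower. Those of 500 to 1000, the range of Slc22a7, had one of -0.02. Spike-in controls, which are added to the sample and are not liver transcripts, were also lower on the OGFRL1 arrays. Their mean log2 difference was -0.43 for Cre (4 probe sets) and -0.32 for BioB, BioC and BioD (14 probe sets). The part of these shifts in the carriers' values was not tested. In bulk tissue, fewer cells of a type and less RNA per cell cannot be told apart.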

How the data were processed

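Liver RNA was measured on 4 single-colour Affymetrix arrays, 2 per group, from 100 ng of total RNA labelled with biotin, per the labels. The authors deposited linear signal intensities made with MAS5 (version not given in the sources used here), per the submitters' processing notes. Each array had the same trimmed mean, 100.001 without the outer 2% at each end, so arrays had been scaled as a whole, and bright transcripts can still shift together.

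Signals were converted to log2 after adding 3.51, their 25th percentile. A gene was represented by its single-symbol probe set with the highest mean signal, kept at a mean of at least 11.6. Of the probe sets, 34945 had 1 symbol, 932 several and 9160 none, and 64 were controls. The difference OGFRL1 minus EGFP was fitted with limma 3.58.1 in R 4.3.3 (lmFit, eBayes with intensity trend, 2-sided) over 11942 genes, with Benjamini-Hochberg adjustment at 0.05, 2 residual and 4.48 prior degrees of freedom. A second fit took 20238 single probe sets. Array medians were 11.6 to 12.5, and the small number of arrays limits the precision.

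On simulated data for OGFRL1 against EGFP (11942 genes, 5 data sets, 200 changed genes each), 76.1% of genes with a log2 change of 2 and 24.1% of those with a change of 1 were called. The simulated errors were independent and normal, with variances drawn from limma's fitted prior. These shares thus hold where the model's own assumptions are met, without array effects or shifts that go with brightness. Alternatives were other normalizations (quantile, equal medians, cyclic loess), pseudocounts and filters, the mean over probe sets, a replicate block, each array left out and no intensity trend. Replicate numbers do not mark a shared animal or batch in the labels. Members and gene lists were chosen with earlier results of these data known. Named are the 9 members, up to 5 genes of each list described (first past the threshold, then by moderated t) and the 4 genes most like Slc22a7. Figures used Python 3.11.15 and matplotlib 3.10.9.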

Additional observations from a re-analysis of the deposited data

How the results depend on the processing

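The number of genes called over the whole array, 61, was 4 after quantile normalization, 18 after cyclic loess, 94 with 4 times the pseudocount, 21 with the stricter filter (mean signal of at least 46.6) and 13 with the mean over probe sets. It was 0 in limma without a filter (2179 genes had an unadjusted p under 0.05) and 0 without the intensity trend (1654 genes), and 0 to 873 with 1 array left out. Leaving out OGFRL1 1 or OGFRL1 2 gave the 0 (922 and 732 genes below that unadjusted p), and leaving out EGFP 1 or EGFP 2 gave 598 and 873. With the replicate number as a block (replicate block) it was 59. The difference between replicates 1 and 2 correlated at -0.28 between the groups over 11942 genes. With the numbers crossed, an alternative chosen after seeing the data, the count was 934. The uptake median of -0.55 was -0.40 with the mean over probe sets, and the uptake minus efflux median of -0.37 was then -0.22. With 1 array left out, the efflux median lay between -0.24 and -0.040, and the uptake minus efflux median between -0.56 and -0.27. Abcc2 changed sign to -0.080 without EGFP 2 and to -0.13 without OGFRL1 1, with a range of -0.13 to 0.20 over arrays left out. Abcc3 changed sign to 0.066 without EGFP 1, with a range of -0.31 to 0.066. The causes were not tested. The other 6 tested carriers kept their direction in all 15 alternatives, which for groups that do not overlap is partly fixed.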

Other observations

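Among all solute carrier genes on the array (symbols starting with Slc and a digit), 234 were tested and 123 were lower in OGFRL1 livers, where 44.4% of all genes tested were. Slc22a7 was the 1 that passed the threshold downward, and Slc1a4, a carrier of neutral amino acids such as serine and alanine, the 1 that passed upward. Slc1a4, chosen after its values were seen, read 181 and 184 in OGFRL1 livers, against 61.5 and 59.2 in EGFP livers (log2 difference 1.54 ± 0.16 SE, limma adjusted p = 0.0405). At an unadjusted p under 0.05, 26 of the 234 were lower and 11 higher, where 6.28% of all genes tested were lower and 9.01% higher. Of 37 tested ATP-binding cassette genes none passed over all genes (limma), with 7 lower and 5 higher at an unadjusted p under 0.05.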
